A study of Mus musculus with 8 samples.

Results

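Glucose uptake and glycolysis were followed through 10 genes: Slc2a1, Hk1, Hk2, Pfkl, Pfkp, Aldoa, Pgk1, Eno1, Ldha and Ldhb. They were taken from the deposited gene tables, which write them in lower case (slc2a1, hk1, hk2, pfkl, pfkp, aldoa, pgk1, eno1, ldha and ldhb), and made up 10 of 22558 genes. All 10 passed the filter on low values that left 14847 genes to test. The genes were not picked by their measured values, although they were chosen by name with earlier results of these data known. RNA had been sequenced from 8 mouse libraries in 4 groups of 2. The cells of 3 groups were sorted by flow cytometry for fibroblast activation protein (FAP), a cell-surface protease of stromal cells, after visceral adipose tissue, skeletal muscle or pancreas had been dissociated. The pancreas cells are labelled stellate cells, mesenchymal cells known in that organ for storing retinoids. The remaining group were mouse embryonic fibroblasts (MEFs) lacking FAP: embryonic cells sorted as FAP-negative, cultured through 3 passages and sorted again. No strain, age, allele or treatment is given in the labels, and they do not say how many animals went into a library. The FAP+ cells came straight from tissue and the MEFs from culture, so tissue against culture and FAP+ against FAP-negative cannot be told apart in any comparison with MEFs. The libraries of a group are labelled biological replicates from duplicate experiments, so the p-values measure the spread between such pairs.

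Glycolysis splits glucose into pyruvate and yields ATP without oxygen, and it starts with the entry of glucose through a facilitative transporter and its phosphorylation by hexokinase. Phosphofructokinase then commits the sugar to the pathway, the enzymes from aldolase to enolase carry it to the last high-energy intermediates, and lactate dehydrogenase passes electrons between pyruvate and lactate. Several steps are served by more than 1 isoenzyme from separate genes, and their proportions differ between tissues. Proliferating cells and cells short of oxygen are known for high levels of these transcripts, and many of the genes carry binding sites for the hypoxia-inducible factors in their promoters.

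Promoter sequences are shown for 4 genes that differed from MEFs, and no result on transcript levels uses these sequences. Slc2a1, Pgk1 and Ldha were lower in FAP+ cells of muscle and pancreas than in MEFs. Hk2 was higher in FAP+ cells of adipose tissue and muscle. Each runs 5′ to 3′ on the gene's strand over the 250 bases before a RefSeq start, and all are from the build GRCm38.p6, which is not the build named for the expression tables. The Slc2a1 window is chr4:119108495-119108744 (+), the Pgk1 window chrX:106186850-106187099 (+), the first Ldha window chr7:46845554-46845803 (+) and the Hk2 window chr6:82774455-82774704 (-). Capitals mark ACGTG or GCGTG on either strand, the core letters of the hypoxia response element.
Slc2a1: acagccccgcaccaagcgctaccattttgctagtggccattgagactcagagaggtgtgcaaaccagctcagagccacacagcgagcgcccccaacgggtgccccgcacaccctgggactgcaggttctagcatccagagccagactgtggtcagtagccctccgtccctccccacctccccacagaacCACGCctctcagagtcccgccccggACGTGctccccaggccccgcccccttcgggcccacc
Pgk1: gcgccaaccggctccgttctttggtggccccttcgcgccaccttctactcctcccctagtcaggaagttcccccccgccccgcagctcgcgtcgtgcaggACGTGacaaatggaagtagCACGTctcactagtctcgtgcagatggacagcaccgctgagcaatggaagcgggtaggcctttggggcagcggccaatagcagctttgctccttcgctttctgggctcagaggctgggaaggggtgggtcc
Ldha: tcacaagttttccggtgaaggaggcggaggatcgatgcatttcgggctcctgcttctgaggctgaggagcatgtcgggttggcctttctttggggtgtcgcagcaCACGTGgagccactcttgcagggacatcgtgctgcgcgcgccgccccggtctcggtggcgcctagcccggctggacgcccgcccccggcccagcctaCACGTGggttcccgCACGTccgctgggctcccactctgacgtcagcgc
Hk2: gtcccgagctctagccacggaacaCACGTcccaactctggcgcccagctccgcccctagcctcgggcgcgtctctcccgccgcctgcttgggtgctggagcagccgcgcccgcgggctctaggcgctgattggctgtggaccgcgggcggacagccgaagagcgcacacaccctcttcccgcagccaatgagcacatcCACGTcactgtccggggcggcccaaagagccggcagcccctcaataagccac
Capitals stood at 2 places in Slc2a1, 2 in Pgk1, 3 in Ldha and 2 in Hk2. In Ldha, 2 of these places read CACGTG, the E-box, which holds ACGTG on both strands, so that such a place counts for both motifs. A second Ldha window, chr7:46846832-46847081 (+), is not shown and held the core at 1 place and no E-box. RefSeq gave 16 windows for the 10 genes, and 14 of them (87.5%) held the core on either strand, against 38.6% of 32851 windows of the same length over all genes. Of the windows of Aldoa and of Eno1, 4 overlap in pairs and hold the same core places. Counted by gene, all 10 had the core in at least 1 window, against 41.5% of 27025 genes. The E-box was in 1 of the 16 windows of the 10 genes (6.25%), the Ldha window shown, and in 6.02% of all windows. The median GC content was 62.8% in the windows of the 10 genes and 52.4% in all, and both cores are rich in G and C. The genes that were higher and those that were lower in FAP+ cells both held the core, and these matches are letters in a window, not measured binding.

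Estimated fragments totalled 15516319 to 27759399 per library, and a floor of 3 fragments equalled 0.0900 to 0.229 normalised CPM (fragments scaled to the size of the library and its scaling factor). The scaling factors of the trimmed mean of M-values method (TMM) were 0.516 and 0.889 in adipose tissue, 1.01 to 1.13 in muscle and pancreas and 1.31 in both MEF libraries. The first adipose library therefore stood apart, and results of the 10 genes on adipose cells are also given without it. Gsn, the actin-severing protein gelsolin, alone took 10.9% to 17.8% of the fragments of each FAP+ library. Of 10 fibroblast markers, all 10 were above 5 CPM in both libraries of each FAP+ group and 9 in MEFs, and their summed level was 23275 to 51250 CPM in FAP+ libraries and 3921 to 5252 CPM in MEFs. Adipocyte markers summed to 6523 and 830 CPM in the adipose libraries, of which Fabp4 alone gave 6442 and 782 CPM, and to 91.4 CPM or less in every other library. Adipoq and Plin1, which define adipocytes, stood at 1.95 to 5.78 CPM in adipose and at 0 in both MEF libraries, where 5 of the 9 markers were at 0. Endothelial markers summed to 786 and 799 CPM in adipose, 116 and 212 CPM in muscle, 76.6 and 80.0 CPM in pancreas and 34.3 and 36.0 CPM in MEFs. Markers of muscle fibres summed to 60.04 and 74.41 CPM in muscle FAP+ cells, within the range of 41.4 to 99.6 CPM in adipose. By gene they leaned higher in muscle than in adipose, with a median log2 fold change of 1.80 over 10 markers. In the test described below, 3 of these were higher and 1 lower, beside 2.34% and 3.78% of all genes. Acinar markers summed to 78.6 and 166 CPM in pancreas FAP+ cells against 6.2 CPM or less elsewhere.

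Against MEFs, the FAP+ cells of all 3 tissues had less Pfkl and Pgk1 transcript, those of muscle and pancreas had less Slc2a1 and Ldha, and those of adipose tissue and muscle had more Hk2. In adipose cells 4 of the 10 genes were higher than in MEFs (Hk1, Hk2, Pfkp, Ldhb) and 3 lower (Slc2a1, Pfkl, Pgk1), against a background of 50.1% of all tested genes called in either direction, 26.9% higher and 23.2% lower. In muscle cells 2 were higher (Hk2, Pfkp) and 5 lower (Slc2a1, Pfkl, Pgk1, Ldha, Ldhb), with 43.8% of all genes called, 23.7% higher and 20% lower. In pancreas cells 1 was higher (Pfkp) and 4 were lower (Slc2a1, Pfkl, Pgk1, Ldha), with 42.5% of all genes called, 23.1% higher and 19.4% lower. Here called means that edgeR's quasi-likelihood test over all 14847 genes gave an adjusted p (Benjamini-Hochberg) below 0.05. So many genes differed from MEFs that the number of members called says little by itself. It was 70%, 70% and 50% of the 10 in adipose, muscle and pancreas, and was not tested against the background. The directions and sizes carry the description. The median log2 fold change of the 10 genes was -0.26 in adipose, -1.98 in muscle and -1.52 in pancreas, beside all-gene medians of 0.05, 0.03 and 0.02. The 3 comparisons share the same MEF libraries and are given side by side.

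**Figure D1:**
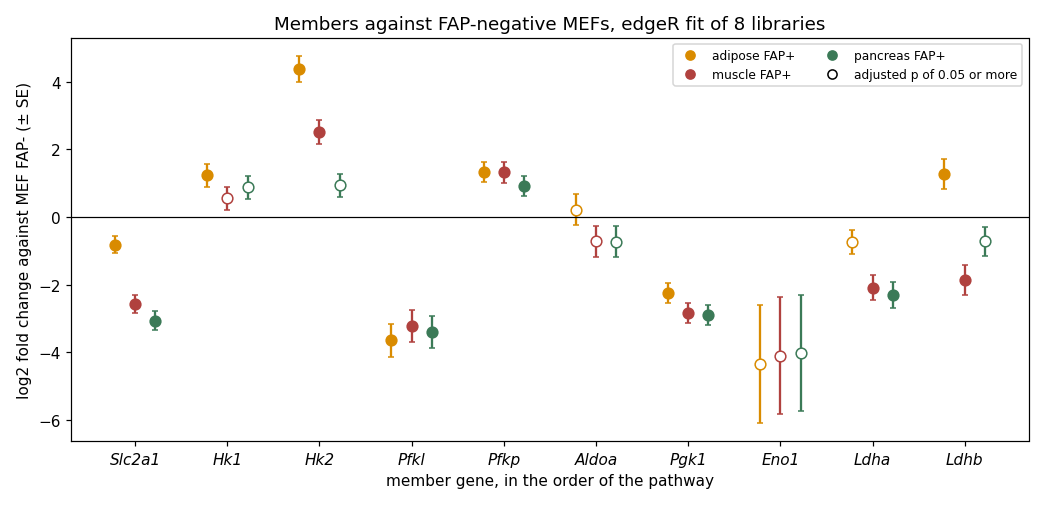
Log2 fold change against MEFs (vertical axis) of the 10 genes in the order of the pathway (horizontal axis), for adipose, muscle and pancreas FAP+ cells; points are estimates from the edgeR fit of 8 libraries, bars are 1 standard error, and open points have an adjusted p of 0.05 or more. Hk2 reached 4.37 in adipose, Pfkl lay at -3.65 to -3.23 in the 3 tissues, and the bars of Eno1 are the longest.

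Library totals in place of TMM factors turned the direction of 1 gene against MEFs, Aldoa in adipose, from 0.21 to -0.87. With these totals the median of all genes moved to -0.85 in adipose, -0.33 in muscle and -0.22 in pancreas. The members called against MEFs became 1 higher and 4 lower, 1 higher and 6 lower, and 0 higher and 5 lower, beside 7979, 5728 and 5219 of 14847 genes called. On log2(FPKM + 1), where FPKM is the level scaled to gene length and library size, limma called 1 higher and 6 lower in adipose, 1 and 6 in muscle and 0 and 6 in pancreas. It called 8068, 6448 and 5876 of 21784 genes in all. Of all genes called in adipose against MEFs, 53.6% were higher with TMM factors, 28.8% with library totals and 21.7% on log2(FPKM + 1). In muscle these shares were 54.2%, 43.8% and 33.7%, and in pancreas 54.4%, 49.5% and 38.4%. Of the 19 calls against MEFs, 12 remained in direction and call under all 20 alternatives: Hk2 in adipose and muscle, Pfkl and Pgk1 in all 3 tissues, and Slc2a1 and Ldha in muscle and pancreas. Leaving out any muscle, pancreas or MEF library lowered the number called over all genes in every comparison. Without either adipose library it rose in every comparison, and in those with adipose it rose more without the second than without the first. A call lost or gained in these fits is therefore not a result about that gene alone.

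**Figure D2:**
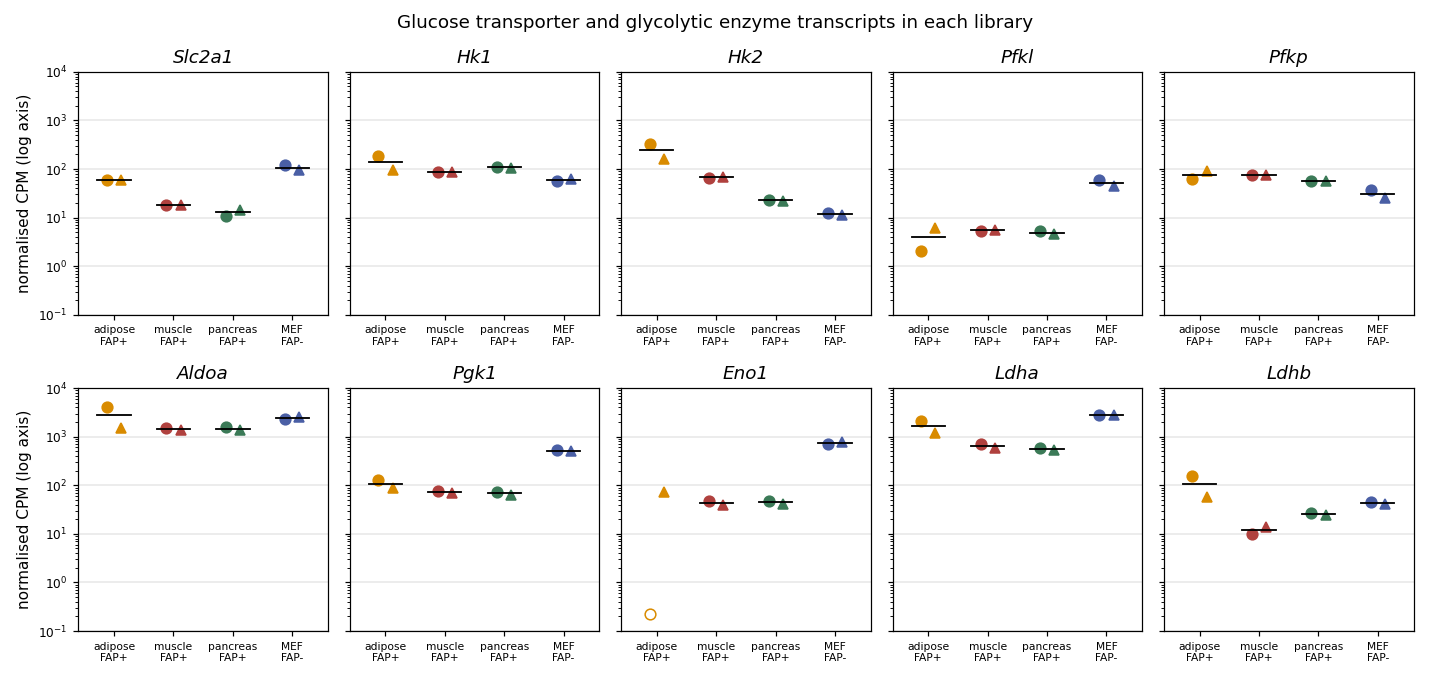
Normalised CPM (logarithmic vertical axis, the same in every panel) of each gene in every library; circles are replicate 1, triangles replicate 2, and lines are group means. The open circle for Eno1 is the first adipose library, drawn at the floor of 3 fragments, and no mean is drawn there; Pfkl, Pgk1, Eno1 and Ldha are highest in the MEF libraries and Hk2 in the adipose libraries.

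Slc2a1 encodes GLUT1, the facilitative transporter that brings glucose into most cells. Its normalised level was 60.9 and 60.4 CPM in adipose FAP+ cells, 18.0 and 18.0 CPM in muscle, 10.98 and 14.56 CPM in pancreas and 118 and 95.6 CPM in MEFs. The MEF libraries were highest, adipose came next, and no 2 groups overlapped. Slc2a1 was 5.95-fold lower in muscle than in MEFs (log2 fold change -2.57 ± 0.26 SE, adjusted p = 0.000297) and 8.37-fold lower in pancreas (-3.07 ± 0.27, adjusted p = 0.000156). In adipose it was 1.76-fold lower (-0.82 ± 0.25, adjusted p = 0.0275), with -0.82 again without the first adipose library and -1.72 with library totals. That call was lost when either muscle or either MEF library was left out (adjusted p = 0.0525 to 0.140). Among tissues, Slc2a1 was 3.37-fold lower in muscle than in adipose (-1.75 ± 0.26, adjusted p = 0.0113) and 4.75-fold lower in pancreas than in adipose (-2.25 ± 0.26, adjusted p = 0.00431), while pancreas and muscle differed by -0.49 (adjusted p = 0.467). These differences from adipose were -1.76 and -2.25 without its first library (adjusted p = 0.00744 and 0.00202). The call of muscle against adipose was lost without either muscle library (adjusted p = 0.124 and 0.138) and with library totals (-1.22, adjusted p = 0.118). That of pancreas against adipose was lost without either pancreas library (adjusted p = 0.0585 and 0.0749) and on log2(FPKM + 1) (-1.47, adjusted p = 0.0742).

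Hexokinase phosphorylates glucose on entry and so traps it in the cell. Hk1 encodes the isoenzyme found in most tissues and Hk2 the one typical of insulin-responsive tissues such as skeletal muscle and fat. Hk2 measured 326 and 164 CPM in adipose, 66.1 and 69.1 CPM in muscle, 22.8 and 22.3 CPM in pancreas and 12.3 and 11.3 CPM in MEFs. The 4 groups stood in that order without overlap, and both adipose libraries were above every other library. Against MEFs, Hk2 was 20.7-fold higher in adipose (log2 4.37 ± 0.38, adjusted p = 0.000137) and 5.72-fold higher in muscle (2.52 ± 0.35, adjusted p = 0.00119). The difference between adipose and MEFs was 3.80 without the first adipose library, 3.34 with library totals and 2.86 on log2(FPKM + 1). In pancreas the difference of 0.93 ± 0.34 missed the threshold (adjusted p = 0.0588), and it was 0.92 to 0.93 without either adipose library. Between tissues Hk2 was 3.62-fold lower in muscle than in adipose (-1.86 ± 0.35, adjusted p = 0.0245) and 10.9-fold lower in pancreas than in adipose (-3.44 ± 0.37, adjusted p = 0.00381). Without the first adipose library these were -1.29 and -2.87. The call of muscle against adipose was lost without any 1 of the 6 libraries of muscle, pancreas and MEFs (adjusted p = 0.0578 to 0.223) and with library totals (-1.19, adjusted p = 0.0662), and that of pancreas against adipose without either pancreas library (adjusted p = 0.0668 and 0.0719). Pancreas and muscle differed by -1.58 ± 0.34 (adjusted p = 0.0511), a difference that passed with DESeq2 (adjusted p = 0.00129) and stayed at -1.58 without either adipose library.

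Hk1 varied much less. Its level was 188 and 93.5 CPM in adipose, 86.0 and 88.7 CPM in muscle, 112 and 107 CPM in pancreas and 56.6 and 62.9 CPM in MEFs. All FAP+ libraries lay above the MEF libraries, and the adipose range contained that of pancreas. Hk1 was 2.35-fold higher in adipose than in MEFs (1.23 ± 0.35, adjusted p = 0.0201), but 0.65 without the first adipose library and 0.20 with library totals (adjusted p = 0.571). Without either MEF library that call was lost (adjusted p = 0.0779 and 0.116). The differences of 0.55 in muscle and 0.87 in pancreas missed the threshold (adjusted p = 0.224 and 0.0733), and were 0.54 and 0.87 without either adipose library. On log2(FPKM + 1) Hk1 differed from MEFs by 0.02 for adipose, -0.07 for muscle and 0.37 for pancreas, and with library totals by 0.20, 0.18 and 0.63.

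Phosphofructokinase is the main control point of the pathway and is assembled from subunits of 3 genes. Pfkl encodes the liver-type subunit and Pfkp the platelet-type subunit. Pfkl was at 2.04 and 5.99 CPM in adipose, 5.43 and 5.58 CPM in muscle, 5.18 and 4.59 CPM in pancreas and 59.2 and 44.1 CPM in MEFs. Every MEF library was far above every FAP+ library, and the FAP+ groups overlapped or lay close together. Pfkl was 12.5-fold lower in adipose than in MEFs (log2 -3.65 ± 0.48, adjusted p = 0.000816), 9.39-fold lower in muscle (-3.23 ± 0.47, adjusted p = 0.0014) and 10.6-fold lower in pancreas (-3.40 ± 0.48, adjusted p = 0.0012). Without the first adipose library, where it was lowest, the adipose difference was -3.10, and over all alternatives it ran from -4.77 to -3.10. The tissues did not differ in Pfkl past the threshold (log2 differences of -0.17 to 0.42). The reads recovered from the table of RPKM, the deposited read values scaled to length and depth, were few in FAP+ cells, 22 and 116 in adipose, 81 and 119 in muscle and 85 and 80 in pancreas, beside 1549 and 1140 in MEFs.

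Pfkp moved the other way. It was at 62.0 and 91.6 CPM in adipose, 76.5 and 77.1 CPM in muscle, 57.8 and 58.0 CPM in pancreas and 36.6 and 25.1 CPM in MEFs. The MEF libraries were the lowest, and the adipose range contained that of muscle. Pfkp was 2.49-fold higher in adipose than in MEFs (1.32 ± 0.30, adjusted p = 0.00862), 2.49-fold higher in muscle (1.32 ± 0.30, adjusted p = 0.00962) and 1.88-fold higher in pancreas (0.91 ± 0.30, adjusted p = 0.0395). The adipose difference was 1.58 without that tissue's first library (adjusted p = 0.00155). None of these 3 calls held with library totals (0.49, 0.95 and 0.67) or on log2(FPKM + 1) (0.18, 0.67 and 0.42), although reads recovered from RPKM gave 1.66, 1.47 and 1.05 and called all 3. Leaving out the second MEF library ended the call in each tissue (adjusted p = 0.0633, 0.068 and 0.199). The muscle call was also lost without either muscle library (adjusted p = 0.0572 and 0.0614), and the pancreas call without any of the 6 libraries that are not adipose (adjusted p = 0.0643 to 0.199).

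Aldoa encodes aldolase A, which splits fructose bisphosphate into 3-carbon sugars. It was at 4045 and 1536 CPM in adipose, 1517 and 1397 CPM in muscle, 1554 and 1346 CPM in pancreas and 2264 and 2558 CPM in MEFs. The first adipose library was the highest of all 8 and the second lay with muscle and pancreas, so that adipose and MEFs overlapped. No difference in Aldoa passed the threshold with TMM factors. Against MEFs it was 0.21 ± 0.46 in adipose (adjusted p = 0.721) and -0.65 without the first adipose library, while without the second it was 0.74 (adjusted p = 0.0285). With library totals it was -0.87 (adjusted p = 0.0511), on log2(FPKM + 1) -1.08 (adjusted p = 0.0229) and on reads recovered from RPKM -0.66 (adjusted p = 0.0362). In muscle and pancreas the difference was -0.73 (adjusted p = 0.233 and 0.231), and it stayed at -0.74 to -0.73 without either adipose library. With library totals it passed, at -1.09 and -0.98 (adjusted p = 0.0309 and 0.0487).

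Pgk1, on the X chromosome, encodes phosphoglycerate kinase 1, the enzyme of the first step that gives ATP. It measured 128 and 89.0 CPM in adipose, 75.5 and 68.8 CPM in muscle, 74.4 and 63.9 CPM in pancreas and 535 and 496 CPM in MEFs. Both MEF libraries were several times above all FAP+ libraries, among which adipose was highest. Pgk1 was 4.76-fold lower in adipose than in MEFs (-2.25 ± 0.29, adjusted p = 0.000747), 7.15-fold lower in muscle (-2.84 ± 0.30, adjusted p = 0.000332) and 7.45-fold lower in pancreas (-2.90 ± 0.30, adjusted p = 0.000316). Without the first adipose library the adipose difference was -2.53, and over all alternatives it ran from -3.40 to -2.03. No difference between tissues passed (adjusted p = 0.193 to 0.988), although adipose passed against muscle and pancreas without its second library (adjusted p = 0.0265 and 0.021).

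Eno1 encodes alpha-enolase, which makes phosphoenolpyruvate. In the tables its reads are divided with Gm5506, RefSeq's older name for Eno1b, a near-identical copy, so that values of either gene alone are uncertain. Eno1 was at 72.2 CPM in the second adipose library, 46.6 and 38.4 CPM in muscle, 47.9 and 42.1 CPM in pancreas and 695 and 776 CPM in MEFs. In the first adipose library it was estimated at less than the floor of 3 fragments, while Gm5506 stood at 230 CPM there. Whole reads recovered from RPKM were few for Eno1, with 42 and 40 in the MEF libraries, 0 and 5 in those from adipose, 4 and 2 from muscle and 3 and 5 from pancreas, so calls of Eno1 on recovered reads rest on these. The fitted differences from MEFs missed the threshold, at -4.34 ± 1.75 for adipose, -4.11 ± 1.73 for muscle and -4.03 ± 1.72 for pancreas (adjusted p = 0.0704, 0.0887 and 0.0938). With either adipose library left out, the muscle and pancreas differences were -4.12 and -4.04, and adipose without its first library gave -3.35.

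Summing Eno1 and Gm5506, an alternative added after seeing the data, gave 230 and 249 CPM in adipose, 195 and 210 CPM in muscle, 304 and 244 CPM in pancreas and 1944 and 1898 CPM in MEFs. The MEF libraries were far above all others, and in normalised CPM the first adipose library lay close to the second. By summed FPKM these adipose libraries stood apart, at 39.5 and 102. The sum was 8.03-fold lower in adipose than in MEFs (-3.00 ± 0.30, adjusted p = 0.000236), 9.49-fold lower in muscle (-3.25 ± 0.30, adjusted p = 0.000207) and 7.01-fold lower in pancreas (-2.81 ± 0.30, adjusted p = 0.000349). Tissues did not differ in the sum past the threshold (adjusted p = 0.613 to 0.705).

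Ldha encodes the lactate dehydrogenase subunit that favours the making of lactate, and Ldhb the subunit that favours its return to pyruvate. Ldha was at 2136 and 1207 CPM in adipose, 721 and 590 CPM in muscle, 598 and 528 CPM in pancreas and 2811 and 2771 CPM in MEFs. MEFs were highest and adipose next, without overlap, and muscle overlapped pancreas. Ldha was 4.26-fold lower in muscle than in MEFs (-2.09 ± 0.38, adjusted p = 0.00351) and 4.96-fold lower in pancreas (-2.31 ± 0.38, adjusted p = 0.00244). In adipose the difference was -0.74 ± 0.36 (adjusted p = 0.122), and -1.21 without the first adipose library (adjusted p = 0.00616), -1.75 with library totals (adjusted p = 0.00249) and -1.27 from reads recovered from RPKM (adjusted p = 0.00201). Between tissues, Ldha was 2.97-fold lower in pancreas than in adipose (-1.57 ± 0.37, adjusted p = 0.0397), a call lost without any 1 of the 6 libraries of muscle, pancreas and MEFs (adjusted p = 0.077 to 0.261) and with library totals (-0.80, adjusted p = 0.118), and -1.11 without the first adipose library (adjusted p = 0.0231). The difference of -1.35 between muscle and adipose missed the threshold (adjusted p = 0.0753) and passed without the second adipose library (adjusted p = 0.00212).

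Ldhb was at 152 and 57.6 CPM in adipose, 10.1 and 13.6 CPM in muscle, 27.5 and 24.9 CPM in pancreas and 45.2 and 41.5 CPM in MEFs. The groups stood in the order adipose, MEFs, pancreas and muscle without overlap. Ldhb was 8.78-fold lower in muscle than in adipose (-3.13 ± 0.46, adjusted p = 0.0115) and 3.99-fold lower in pancreas than in adipose (-2.00 ± 0.44, adjusted p = 0.0326). Without the first adipose library these differences were -2.28 and -1.14, and with library totals -2.42 and -1.15, the second of these uncalled (adjusted p = 0.0763). The first call was lost without either muscle library (adjusted p = 0.104 and 0.143) and the second without any 1 of the libraries of muscle, pancreas or MEFs (adjusted p = 0.0715 to 0.22). Against MEFs Ldhb was 3.64-fold lower in muscle (-1.86 ± 0.44, adjusted p = 0.0116), a call lost without either muscle library or the first MEF library (adjusted p = 0.0526 to 0.0923). In adipose it was 2.41-fold higher than in MEFs (1.27 ± 0.43, adjusted p = 0.0405), but only 0.41 without the first adipose library, and leaving out any library other than the second of adipose ended the call (adjusted p = 0.0703 to 0.185). On log2(FPKM + 1) that difference was -0.02, and with library totals 0.19. Pancreas lay -0.73 from MEFs (adjusted p = 0.204) and 1.14 from muscle (adjusted p = 0.276), and without either adipose library these differences were again -0.73 and 1.14.

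Compared per length in the deposited bias-adjusted FPKM, with Eno1 taken alone, Aldoa and Ldha were the most abundant of the 10 transcripts in every library. In MEFs Ldha led with 1495 and 1370 FPKM, followed by Aldoa with 908 and 953 FPKM. In muscle and pancreas Aldoa led with 357 to 408 FPKM, and Ldha followed with 200 to 233 FPKM. The adipose libraries were split, with Aldoa ahead in the first (520 against 364 FPKM) and Ldha ahead in the second (388 against 372 FPKM). The order differed in RPKM. There Ldha led in adipose with 134 and 162 RPKM and in MEFs with 617 and 579.6 RPKM, where Pgk1 (543 and 484 RPKM) was above Aldoa (208 and 222 RPKM). In muscle and pancreas Aldoa at 92.8 to 101.7 RPKM and Ldha at 92.7 to 108 RPKM overlapped. Eno1 and Gm5506 summed reached 1385 and 1302 FPKM in MEFs, more than Aldoa. At the other end, Pfkl was the lowest of the 10 in muscle and pancreas, at 1.63 to 1.75 FPKM, and Hk2 in MEFs, at 3.5 and 4.08 FPKM. The 10 genes together took 0.300% to 0.366% of all fragments in adipose, 0.242% to 0.274% in muscle and pancreas and 0.870% and 0.902% in MEFs. Without Aldoa and Ldha the shares were 0.0380% to 0.0564% in FAP+ libraries and 0.203% and 0.204% in MEFs. In bulk samples such as these, fewer cells of a type and less RNA per cell cannot be told apart.

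Shares within an isoenzyme pair are computed inside a library and so do not depend on scaling between libraries. Hk2 made up 72.2% and 72.5% of the summed Hk1 and Hk2 FPKM in the adipose libraries, 53.5% and 53.8% in those of muscle, 23.4% and 23.8% in those of pancreas and 24.6% and 21.3% in MEFs. Adipose stood above muscle and muscle above the others, while pancreas lay within the MEF range. From RPKM the same shares were 95.1% and 88.9%, 75.2% and 75.4%, 48.9% and 45.1%, and 45.8% and 42.1%, higher throughout but in the same order of tissues. Pfkl made up 63.4% and 65.4% of the summed Pfkl and Pfkp FPKM in MEFs and 3.41% to 8.77% in the 6 FAP+ libraries. With the muscle-type subunit gene Pfkm counted as well, Pfkp held 58.1% to 69.1% of the phosphofructokinase FPKM in FAP+ libraries and 21.2% and 24.9% in MEFs, and Pfkl 2.32% to 5.65% and 40.01% and 43.14%. Pfkm took 25.7% to 37.0% in FAP+ libraries and 32.0% and 38.8% in MEFs, which overlap. Ldhb made up 15.9% and 11.3% of the summed Ldha and Ldhb FPKM in the adipose libraries, 3.6% and 5.80% in those of muscle, 10.9% and 11.2% in those of pancreas and 4.11% and 3.84% in MEFs. Adipose and pancreas lay above muscle and MEFs, although the pancreas libraries had less Ldhb in CPM than the MEF libraries. No test of the shares was run.

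**Figure D3:**
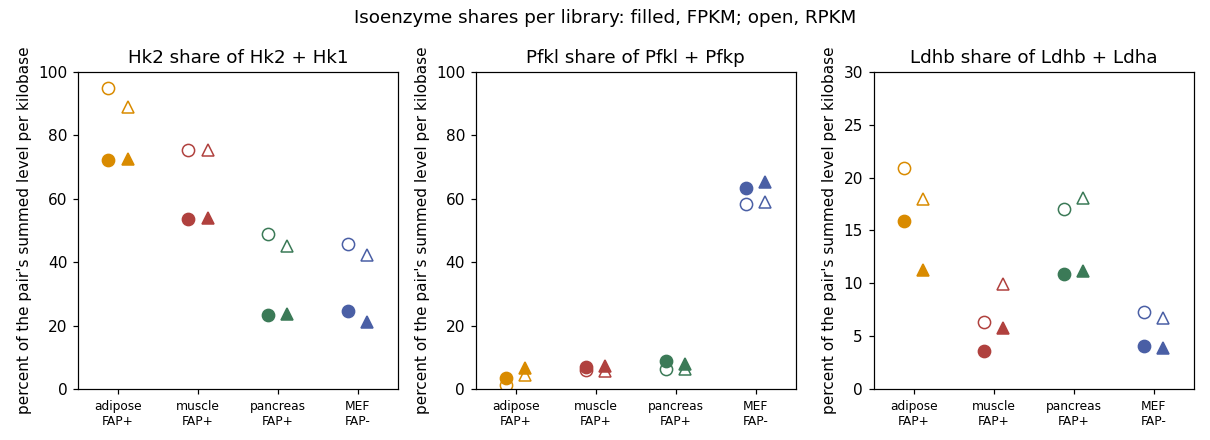
Share of the first-named gene in the summed level per kilobase of each isoenzyme pair (vertical axis, percent; the third panel ends at 30%) in each library by group; filled symbols are FPKM, open symbols RPKM, circles replicate 1 and triangles replicate 2. Pfkl makes up 3.41% to 8.77% of its pair by FPKM in FAP+ libraries and 63.4% and 65.4% in MEFs.

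Between the tissues few of the 10 genes differed, and all calls had adipose as the higher side. In muscle against adipose 3 genes were lower (Slc2a1, Hk2, Ldhb) and none higher, with 6.12% of all genes called in either direction, 2.34% higher and 3.78% lower. In pancreas against adipose 4 were lower (Slc2a1, Hk2, Ldha, Ldhb) and none higher, with 9.05% of all genes called and 5.73% lower. The median log2 fold change of the 10 genes was -0.81 and -0.80 in these comparisons, beside -0.0057 and -0.0012 over all genes. In pancreas against muscle edgeR called none of the 10 genes, with 3.67% of all genes called, 1.54% higher and 2.14% lower. The unadjusted p of edgeR's test was 0.0019 for Hk2 and 0.0316 for Ldhb, and the share of all genes with such values was not counted. DESeq2 called 1 of the 10, Hk2, beside 1055 of 14847 genes. The 10 genes had a median of -0.11 there. Without the second adipose library, the median of the 10 genes was -1.28 in muscle and -1.18 in pancreas against adipose, and without the first -0.55 and -0.68. Leaving out a muscle library gave -0.83 and -0.79 in muscle against adipose. Leaving out a pancreas library gave -0.90 and -0.70 in pancreas against adipose. A fit of only the 2 groups compared called 0 of the 10 genes in muscle and 2 in pancreas against adipose. The same fits called 74 of 13801 and 305 of 13747 genes in all. Library totals gave 1 and 2 of the 10, with 479 and 1169 of 14847 genes called. Of all genes called in muscle against adipose, 38.2% were higher with TMM factors, 65.6% with library totals and 54.99% on log2(FPKM + 1), and in pancreas against adipose 36.7%, 69.8% and 62.1%. In pancreas against muscle these shares were 41.8%, 47.9% and 54.7%. Markers of 5 other cell types were highest in adipose too. Erythroid genes summed to 1414 and 134 CPM there against 111 CPM or less elsewhere, leukocyte genes to 82.6 and 53.9 CPM against 22.1 CPM or less, and genes of pericytes and smooth muscle to 371 and 307 CPM against 125 CPM or less. Called lower than in adipose were 3 of 7 tested adipocyte markers in muscle and 5 in pancreas, 4 and 7 of 8 endothelial, 0 and 2 of 4 erythroid, 3 and 4 of 6 leukocyte, and 4 and 4 of 8 pericyte and smooth muscle markers. In pancreas, 7 of 10 epithelial and mesothelial markers were higher than in adipose, and 7 higher than in muscle, with sums of 299.8 and 105 CPM in pancreas, 82.0 and 98.97 CPM in adipose, 10.1 and 7.14 CPM in muscle and 66.2 and 84.9 CPM in MEFs. The part of these cell types in the differences between tissues was not tested.

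The counts of each list that follows were not tested against the shares of all genes called, and counts near those shares say little by themselves. Against MEFs these shares were 26.9% higher and 23.2% lower in adipose, 23.7% and 20% in muscle and 23.1% and 19.4% in pancreas. The other glycolytic enzymes, 14 of 20 listed being tested, differed from MEFs in both directions. In adipose 2 were higher and 4 lower, in muscle 1 and 5 and in pancreas 2 and 5, while 8, 8 and 7 were not called, and the medians were -0.55, -0.77 and -0.68. The adipose counts were 2 and 6 without the first adipose library, with Gapdh among the lower (3.69-fold, adjusted p = 0.00086). Pkm, pyruvate kinase, was 3.75-fold lower in adipose than in MEFs (adjusted p = 0.00296), 4.96-fold lower in muscle (adjusted p = 0.00147) and 5.18-fold lower in pancreas (adjusted p = 0.00137). Pgam1, phosphoglycerate mutase, was 4.48-, 4.72- and 4.91-fold lower (adjusted p = 0.00117, 0.00112 and 0.00104). Tpi1, triosephosphate isomerase, fell 2.76-, 3.54- and 3.30-fold (adjusted p = 0.00375, 0.00163 and 0.00218), and Gapdh fell 3.77-fold in muscle cells and 4.39-fold in pancreas cells (adjusted p = 0.0101 and 0.00678). Tpi1, Pgam1 and Pkm were thus lower in all 3 tissues, as Pgk1 was. Pancreas cells also had 3.69-fold more Eno2, the enolase of neurons, than MEFs (adjusted p = 0.0064).

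Other glucose and lactate transporters gave 3 higher and 0 lower of 12 tested in adipose against MEFs, 3 and 1 in muscle and 2 and 3 in pancreas, and without the first adipose library 4 and 1 in adipose. Slc2a8 (GLUT8), an intracellular transporter, was 3.68-, 3.05- and 2.47-fold higher in adipose, muscle and pancreas (adjusted p = 0.000777, 0.00164 and 0.00422). Slc2a10 (GLUT10) was 1.91-, 2.00- and 2.11-fold higher (adjusted p = 0.0169, 0.0143 and 0.0112). Slc16a1 and Slc16a3, the lactate carriers MCT1 and MCT4, were 3.39- and 3.95-fold lower in pancreas than in MEFs (adjusted p = 0.0175 and 0.0146). Among tissues Slc16a3 was 5.72-fold lower in pancreas than in adipose (adjusted p = 0.0236), and 3.18-fold lower without the first adipose library (adjusted p = 0.0212).

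**Figure D4:**
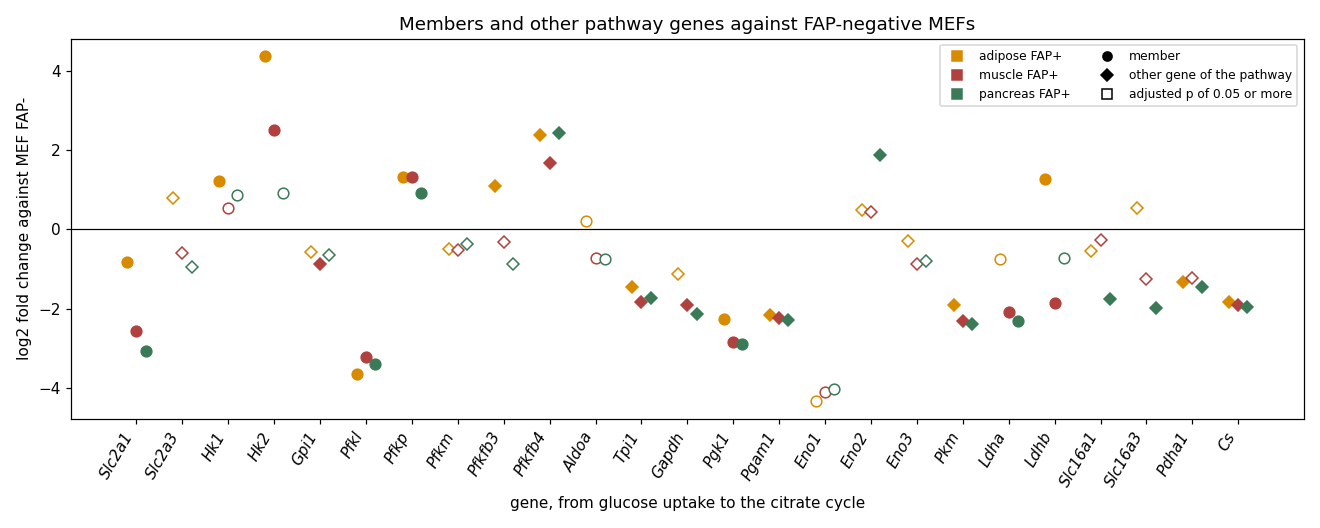
Log2 fold change against MEFs (vertical axis) for the 10 genes (circles) and 15 other genes of uptake, glycolysis and pyruvate entry (diamonds) from glucose uptake to the citrate cycle (horizontal axis), by tissue; open symbols have an adjusted p of 0.05 or more. Tpi1, Pgk1, Pgam1, Pkm and Cs lie below 0 in every tissue, and Hk2, Pfkp and Pfkfb4 above it.

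Regulators of flux went both ways, with 5 higher and 5 lower of 12 tested in adipose against MEFs, 4 and 3 in muscle and 3 and 3 in pancreas, the adipose counts being the same without its first library. Pfkfb4, which sets the level of the phosphofructokinase activator fructose 2,6-bisphosphate, was 5.19-, 3.21- and 5.41-fold higher in adipose, muscle and pancreas (adjusted p = 0.000387, 0.0018 and 0.000391). Its relative Pfkfb3 was 2.66-fold lower in muscle and 3.91-fold lower in pancreas than in adipose (adjusted p = 0.0449 and 0.0125). Among the kinases that switch off pyruvate dehydrogenase, Pdk2 was 5.995-, 4.07- and 4.30-fold higher than in MEFs and Pdk3 3.32-, 8.74- and 5.94-fold lower. Txnip, which restrains glucose uptake, was 7.34-fold higher in muscle and 7.72-fold higher in pancreas than in MEFs (adjusted p = 0.00146 and 0.00137). In adipose it was 4.20-fold higher than in MEFs without the first adipose library.

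Genes for the entry of pyruvate into mitochondria leaned lower, with 2 higher and 5 lower of 9 in adipose, 0 and 4 in muscle and 0 and 5 in pancreas, and medians of -1.12, -1.05 and -1.08. Cs, citrate synthase, was 3.53-, 3.76- and 3.86-fold lower (adjusted p = 0.00376, 0.00341 and 0.0033), and Dlat, a subunit of pyruvate dehydrogenase, 2.75-, 2.46- and 2.66-fold lower. Mpc2, of the mitochondrial pyruvate carrier, was 3.85-fold higher in adipose than in MEFs (adjusted p = 0.00883), and 2.08-fold higher without the first adipose library (adjusted p = 0.00628), where the adipose counts were 1 higher and 4 lower. Of 21 genes of side branches, 6, 5 and 4 were higher and 7, 7 and 8 lower in adipose, muscle and pancreas, with 5 and 7 in adipose without its first library. Among them Gfpt2, of the hexosamine branch, was 108-, 73.4- and 38.6-fold higher, and Psat1, of serine synthesis, was 46.0-fold lower in muscle and 17.5-fold lower in pancreas. In adipose Psat1 averaged 132 CPM beside 631 CPM in MEFs, and was 4.18-fold lower without the first adipose library. Pygl, the liver-type glycogen phosphorylase, was 54.2-, 37.5- and 41.2-fold higher.

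Over all genes, 26.9%, 23.7% and 23.1% were called higher and 23.2%, 20% and 19.4% lower in adipose, muscle and pancreas than in MEFs. Of 20 genes of the hypoxia response outside glycolysis, 3 were higher in each tissue, and 6, 5 and 7 were lower in adipose, muscle and pancreas than in MEFs. In adipose 4 were higher and 3 lower without its first library. Epas1, the factor HIF-2 alpha, was 125-, 28.3- and 48.9-fold higher (adjusted p = 3.66e-05, 0.000107 and 6.96e-05), Ndrg1 10.5-, 6.91- and 6.69-fold higher and Adm, the peptide adrenomedullin, 5.91-, 4.15- and 4.67-fold higher. Car12, a carbonic anhydrase, was at 11.6 and 8.73 CPM in MEFs and at 0.0900 to 0.328 CPM in FAP+ libraries, which spans the floor of 3 fragments. Hif1a, named after its values were seen, was 3.00-, 2.85- and 4.27-fold lower in adipose, muscle and pancreas (adjusted p = 0.0261, 0.0341 and 0.0108), but in adipose the call was lost without the first adipose library (2.13-fold, adjusted p = 0.0551). Myc, a transcription factor of glycolytic genes, was 12.6-, 5.81- and 3.09-fold higher than in MEFs (adjusted p = 0.000204, 0.0009 and 0.00587), and of 9 such factors 3, 3 and 4 were higher and 0, 1 and 1 lower, with 3 and 1 in adipose without its first library.

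Growth and handling differed along with these genes. All 12 cell cycle genes listed were lower in every tissue than in MEFs, with summed levels of 94.3 to 177 CPM in FAP+ libraries and 1514 and 1663 CPM in MEFs. In adipose 11 of the 12 were called without its first library. Immediate early and heat shock genes known to respond to tissue dissociation were higher for 12, 12 and 11 of 12, with summed levels of 11059 to 22076 CPM against 474 and 559 CPM. The part of either in the members' differences was not tested.

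Over the 8 libraries some of the 10 genes followed each other, as a description of libraries that share groups and depth. Of 45 pairs, 6 had a Pearson r of log2 CPM above 0.8 and 4 had one below -0.8. Slc2a1 and Ldha were the closest pair (r = 0.96), followed by Pgk1 and Ldha (0.90), and Hk1 and Eno1 were the most opposed (-0.95), a value that rests in part on the Eno1 estimate below the floor in 1 library. Among 5563 other genes with a mean of at least 20 CPM, the nearest to Hk2 were Il17ra and Bcl3 (r = 0.995 each), to Slc2a1 Cstf3 (0.986) and Fat1 (0.985), and to Ldha Timp1 (0.987) and Actg1 (0.986). The nearest to Pgk1 were Usp39 (0.996) and Pkm (0.995), to Pfkl Usp14 (0.996) and Srsf3 (0.995), to Pfkp Cmtm6 (0.989) and Abi3bp (0.986) and to Ldhb Pvrl2 (0.976) and Dhx32 (0.967). Hk1 had Bloc1s1 (0.993) and Clip3 (0.990), Aldoa had Dynlt1b (0.992) and Snrpe (0.992), and Eno1 had Nudt3 (0.998) and Tnpo2 (0.992). The values for Eno1 rest in part on the same estimate below the floor. With 4 groups of 2 libraries such values are easily reached: 8 to 281 genes had r of at least 0.95 with a given member.

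**Figure D5:**
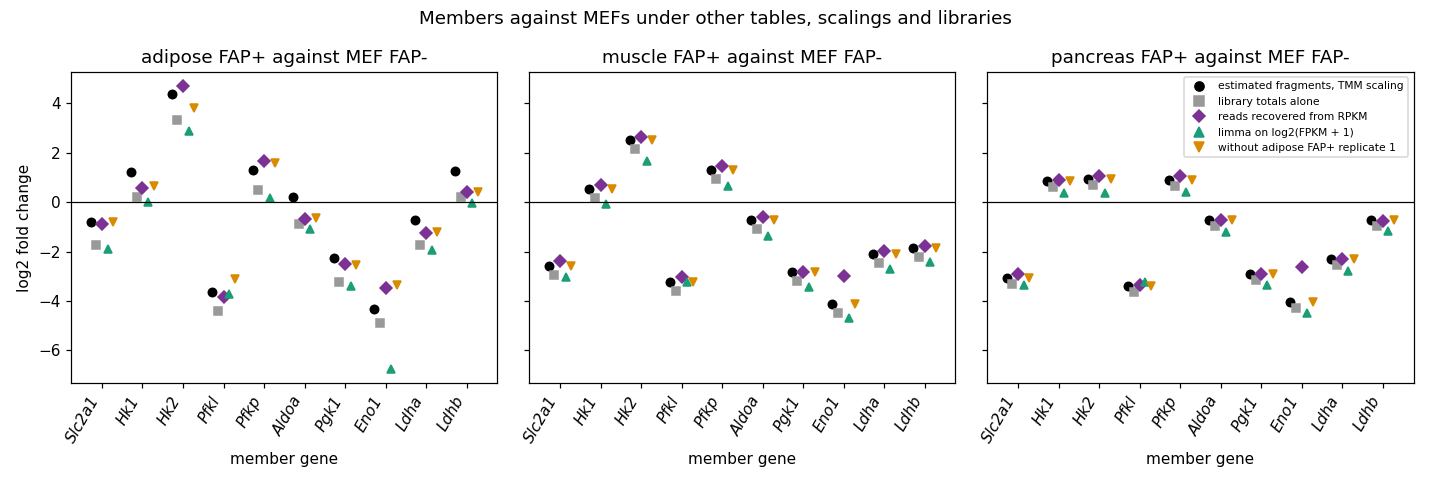
Log2 fold change against MEFs (vertical axis) of the 10 genes (horizontal axis) in adipose, muscle and pancreas FAP+ cells under TMM scaling of the estimated fragments, library totals alone, reads recovered from RPKM, limma on log2(FPKM + 1), and without the first adipose library. Pfkl and Pgk1 stay below 0 and Hk2 above 0 in every panel, while Aldoa and Ldhb in adipose, and Hk1 in muscle, cross 0.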

How the data were processed

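Total RNA for 8 mouse libraries had been prepared with PureLink and amplified with MessageAmp before library preparation, per the labels' protocols. The authors deposited estimated counts of fragments per gene after a bias adjustment, with FPKM values from the same adjustment, and a separate table of RPKM values, per the file headers. The submitters' processing notes name mm9 as the mouse build and TopHat2, Bowtie2, edgeR and HTSeq as tools, with neither versions nor roles. The sources used here do not name the program behind that adjustment. Each table held 6 further columns of values that are not used here. The tests had been planned for counts, and the estimated counts were therefore rounded to whole numbers. The main test was edgeR 4.0.16 (R 4.3.3): TMM factors, its expression filter, 1 quasi-likelihood fit of all 8 libraries with 4 residual degrees of freedom, and Benjamini-Hochberg adjustment over 14847 genes. The script was tested on simulated counts. Fragments per library ran from 15516319 to 27759399, and the common coefficient of biological variation was 33.2%.

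Alternatives were other size factors, library totals, DESeq2 1.42.0, other filters, the groups compared alone, a replicate block, limma 3.58.1 on log2(FPKM + 1) and log2(FPKM + 0.1), and each library left out. Added after seeing the data were whole reads recovered from the deposited RPKM steps (21901 of 22609 genes had a usable step, 100% of them whole within 0.01 of a read) and the sum of Eno1 and Gm5506. Log2 levels for correlations used a prior count of 2. Named from each other list were up to 4 genes called in a comparison, by the largest change, leaving out those under 5 CPM in either library of the group where they were higher. The 10 genes, the lists and the tests were chosen with earlier results of these data known. Promoters came from RefSeq's GRCm38.p6.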

Additional observations from a re-analysis of the deposited data

Results flagged for a closer look

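Each of the following differences between FAP+ cells of 2 tissues passed its own test in edgeR's fit of 8 libraries. In muscle against adipose the log2 difference was -1.75 for Slc2a1, -1.86 for Hk2 and -3.13 for Ldhb. In pancreas against adipose it was -2.25 for Slc2a1, -3.44 for Hk2, -1.57 for Ldha and -2.00 for Ldhb. All 7 have adipose as the higher side and share its 2 libraries, and none of the 7 held under every alternative.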

How the results depend on the processing

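Of 1200 values (60 results of the 10 genes under 20 alternatives), 951 kept direction and call, 99 lost the call, 88 gained one and 62 turned sign, and the cause was not tested. Calls turned sign only for Ldhb in adipose against MEFs, at -0.0218 on log2(FPKM + 1), with or without a filter of 1 FPKM, and -0.0223 on log2(FPKM + 0.1). The other sign changes concern uncalled differences, given here in the order of these 3 FPKM settings where all 3 apply. Aldoa in adipose against MEFs gave -0.87 with library totals, -1.08, -1.08 and -1.08 on FPKM and -0.66 on recovered reads, and Hk1 in muscle against MEFs -0.0744, -0.0744 and -0.0798 on FPKM. In muscle against adipose, Pfkp gave 0.12 with upper quartile factors, 0.46 with totals, 0.031 with no filter, 0.0146 with at least 5 CPM, and 0.49, 0.49 and 0.52 on FPKM; Pgk1 gave 0.0175 with totals; recovered reads gave 0.11 for Hk1 and 0.0483 for Aldoa; Eno1 summed with Gm5506 gave -0.24. In pancreas against adipose, Hk1 gave 0.43 with totals, 0.35, 0.35 and 0.37 on FPKM and 0.32 on reads, Pfkp 0.18 with totals and 0.24, 0.24 and 0.27 on FPKM, and Pgk1 0.0809 with totals and 0.0211, 0.0211 and 0.0217 on FPKM. In pancreas against muscle, Aldoa gave 0.0018 with RLE factors and DESeq2, 0.0153 with upper quartile factors, 0.12 with totals and 0.14 on FPKM, and Pgk1 0.0634 with totals and 0.0845, 0.0845 and 0.0861 on FPKM.

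Fits of only the groups compared called 4 of the 10 genes in adipose and 10 in pancreas against MEFs, 0 in muscle and 2 in pancreas against adipose, and 2 in pancreas against muscle. In that order they called 4588 of 13926, 8205 of 13986, 74 of 13801, 305 of 13747 and 1752 of 13574 genes in all. Recovered reads called 10 in pancreas against MEFs and 1 in pancreas against muscle, beside 7689 and 864 of 14365 genes in all. Library totals called 1 in muscle and 2 in pancreas against adipose and 1 in pancreas against muscle, beside 479, 1169 and 326 of 14847 genes. On log2(FPKM + 0.1) 1 of the 10 was called in muscle against adipose, beside 363 of 21784 genes. Each FPKM setting called 1 in pancreas against adipose and 1 in pancreas against muscle, where upper quartile factors, DESeq2 and no filter also called 1. Of all genes, the FPKM settings called 764 to 872 in pancreas against adipose and 388 to 453 in pancreas against muscle. In pancreas against muscle, upper quartile factors, DESeq2 and no filter called 549, 1055 and 458.

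Leaving out each library in turn, 3 to 9 genes were called in adipose, 5 to 10 in muscle and 4 to 10 in pancreas against MEFs, 0 to 9 in muscle and in pancreas against adipose and 0 to 2 in pancreas against muscle. Over all genes, the number called in these fits fell in every comparison without any muscle, pancreas or MEF library. It rose in every comparison without either adipose library. The ranges for the 10 genes were not tested against these shifts and are not a result about the 10 genes alone. A group left with 1 library is assumed to vary like the others. Leave-one-out ranges of log2 differences that crossed 0 were -0.65 to 0.74 for Aldoa in adipose against MEFs, -0.78 to 12.89 for Eno1 in muscle against adipose, -0.14 to 1.42 for Pfkl in muscle against adipose, -0.27 to 0.31 for Pfkp in muscle against adipose, -0.69 to 12.98 for Eno1 in pancreas against adipose, -0.77 to 0.22 for Hk1 in pancreas against adipose, -0.30 to 1.25 for Pfkl in pancreas against adipose, -0.12 to 0.0871 for Aldoa in pancreas against muscle, -0.0558 to 0.23 for Eno1 in pancreas against muscle and -0.18 to 0.0394 for Pgk1 in pancreas against muscle.

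The replicate block called 6, 7, 4, 3, 4 and 0 of the 10 genes in the 6 comparisons, in the order adipose, muscle and pancreas against MEFs, muscle and pancreas against adipose, and pancreas against muscle. In the same order it called 7202, 6428, 6214, 732, 1147 and 471 of 14847 genes. The labels do not say whether same-numbered libraries share an animal or a day. Same-numbered deviations from the group means correlated from -0.16 to 0.35 across genes between groups. With 2 libraries per group these values cannot decide whether the numbers pair the samples. Among the 10 genes, only Eno1 in 1 library was below the floor of 3 fragments.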
